A study of Homo sapiens with 7 samples.

Results

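9 genes of lytic cell death were followed across 7 cell lines of Hodgkin lymphoma (HL): the gasdermins GSDME, GSDMD, GSDMB and GSDMC, the inflammatory caspases CASP1 and CASP4, the inflammasome sensor NLRP3, its adaptor PYCARD, and the rupture protein NINJ1. Members were all probe sets which the array annotation gives to one of these 9 genes alone, and this rule found 18 probe sets among 54675 on the array, for 9 of 19775 genes. The genes were chosen by their measured values in these same arrays, above all by a high GSDME level in L-540 alone. Their levels are therefore given as a description with no test, and the pattern which led to their choice is not a finding.

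The study profiled L-540, L-428, L-1236, HDLM-2, KM-H2, SUP-HD1 and U-HO1 cells, all of them established HL lines, in its work on homeobox genes in this lymphoma. Each line was hybridised to 1 Affymetrix array, so that a group is 1 line and 1 array, no spread between cultures is known, and no p-value can be given. The arrays came from 2 laboratories, and the sources used here do not assign the lines to them, so laboratory and line cannot be told apart. The labels give no genotype, treatment or culture condition beyond the name of the line.

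Gasdermins are kept inactive by their own carboxy-terminal part. Cleavage by a protease frees the amino-terminal part, which inserts into the plasma membrane and forms pores. In the canonical inflammasome, the sensor NLRP3 gathers the adaptor PYCARD, which recruits and activates CASP1, and CASP1 cuts both GSDMD and the precursors of interleukin-1 beta and interleukin-18. CASP4 senses bacterial lipopolysaccharide in the cytosol and cuts GSDMD directly, while NINJ1 assembles in the membrane of the dying cell and tears it open.

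Levels are log2 values, in which a difference of 1 is a fold of 2. A gene with several probe sets was read from the one whose mean over the lines was highest. Probe sets that belong to one gene varied around each other with a pooled standard deviation (SD) of 0.54 over 5050 genes. Only probe sets whose mean exceeded the mean background, defined below, entered this SD. Differences between neighbouring lines smaller than this SD are not given as an order. This SD is that of a single level, and a difference between lines varies more. Steps just beyond it are therefore a description, above all for arrays whose own SD was larger. A level counted as above background when it exceeded that of 95% of the 107 olfactory receptor probe sets on the same array. This background was 4.51 in L-540, 4.86 in HDLM-2, 4.84 in KM-H2, 5.59 in L-1236, 4.75 in L-428, 4.49 in SUP-HD1 and 4.59 in U-HO1. L-1236 therefore has the least room for low genes, and its SD between probe sets was 0.67, against 0.41 to 0.45 in 5 other lines. U-HO1 stood apart by RNA quality, with an SD of 0.82, an 18S ribosomal RNA level of 11.12 against 5.23 to 7.06 elsewhere, and a 3' signal of ACTB that exceeded its 5' signal by 2.11, against 0.06 to 0.54 elsewhere. Of 7 marker genes of Hodgkin/Reed-Sternberg cells, 7 were above background in L-540, HDLM-2, KM-H2 and U-HO1, 6 in L-428 and SUP-HD1, and 5 in L-1236. The share of all genes above background ran between 43.5% in L-1236 and 58.8% in SUP-HD1. The defining marker TNFRSF8, which encodes CD30, was below background in SUP-HD1, at 4.36, and reached 6.13 to 10.99 in the other 6 lines.

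The members differed in how many lines expressed them. GSDMD, GSDMB and NINJ1 were above background in 7 of 7 lines, CASP1, CASP4 and PYCARD in 4 lines each, and GSDME, NLRP3 and GSDMC in 1 line each. Over the 9 members and 7 lines, 36 of 63 levels lay above background, beside 43.5% to 58.8% of all genes on the single arrays. Among all genes, 34.6% were above background in 7 lines and 8.38% in exactly 1 line. With 9 members, their counts are a description and not a trait of the set.

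By line, the count was highest in HDLM-2 and in U-HO1. The number of members above background was 6 in L-540, where 57.9% of all genes passed, 7 in HDLM-2, where 53.4% passed, and 5 in KM-H2, where 54.1% passed. It was 4 in L-1236 (43.5% of all genes), 3 in L-428 (56.0%), 4 in SUP-HD1 (58.8%) and 7 in U-HO1 (57.4%). The count of 3 in L-428, which holds only GSDMD, GSDMB and NINJ1, thus stood beside a share of all genes close to that of most other lines. With 9 genes a line gains or loses much by a single member near background, as GSDMC and CASP4 in U-HO1, which passed by 0.08 each. Without both, U-HO1, whose RNA quality measures stand apart, would have 5.

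**Figure D1:**
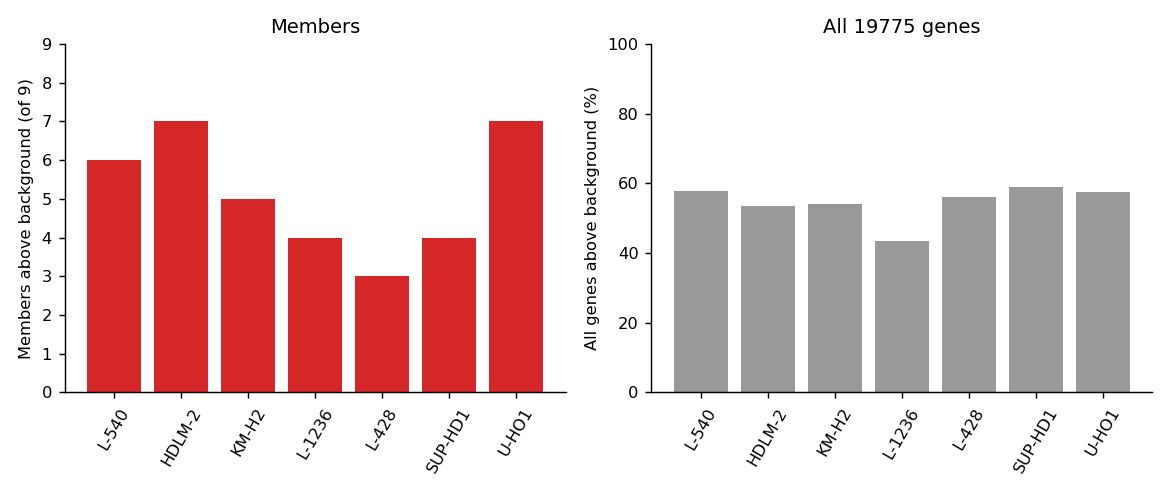
Number of the 9 members above background in each line (left panel, bars from 0) and percent of all 19775 genes above background on the same arrays (right panel, bars from 0). The members ran between 3 in L-428 and 7 in HDLM-2 and U-HO1, while the share of all genes ran between 43.5% in L-1236 and 58.8% in SUP-HD1.

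GSDME encodes the gasdermin which turns apoptosis into lytic death once its linker is cut, among others by granzyme B. Its only probe set, 203695_s_at, read 10.41 in L-540, against 3.36 in KM-H2, 3.35 in U-HO1, 3.28 in L-1236, 3.12 in L-428, 2.97 in HDLM-2 and 2.97 in SUP-HD1. L-540 lay 7.05 above the next line, while the other 6 lines, all below background, lay within 0.39 of one another and thus have no order. As the low lines were not measured above background, the distance is better given as a margin, for which levels below background are raised to the background of their array. This margin was 4.82, set by the background of L-1236, and L-540 lay 5.90 above its own background. A single array carries this value, and in a bulk sample the share of cells with GSDME RNA and the amount per cell cannot be told apart.

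L-540 held 44 genes that stood at least 2 above all other lines by this margin, which is 0.304% of the 14495 genes above background somewhere, and GSDME ranked 5 among them. In any line, 2.59% of these genes stood alone upwards by 2 or more and 1.15% downwards. Among the members 1 stood alone upwards, which is GSDME and was selected on this value, and 0 downwards. The next member by margin was CASP4 in L-540, at 1.19.

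The 6 genes whose pattern over the 7 lines was most like that of GSDME were ALKAL2, GZMB, GALNT3, HLX, G0S2 and RNF144A, with Pearson's r between 0.9976 for RNF144A and 0.9998 for ALKAL2, among 5351 genes with a range of at least 2. Each r rests on L-540 alone, and the 7 points of a gene share the same arrays, so r is a description. ALKAL2, a ligand of the receptor tyrosine kinases ALK and LTK, read 11.15 in L-540 and at most 3.14 in the other lines. GZMB, the granule protease granzyme B which can cut GSDME, read 12.01 in L-540, against 4.75 in HDLM-2 as the next line, which is below background there. HLX, itself an NKL homeobox gene, had 8.96 in L-540 and 5.05 in L-1236. G0S2, an inhibitor of the lipase ATGL, was the only one above background in more than 1 line, with 11.02 in L-540, 5.70 in L-1236 and 4.86 in SUP-HD1. GALNT3, which starts mucin-type O-glycosylation, reached 9.04, and the ubiquitin ligase RNF144A reached 8.75 in L-540, with at most 4.43 and 3.21 elsewhere.

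**Figure D2:**
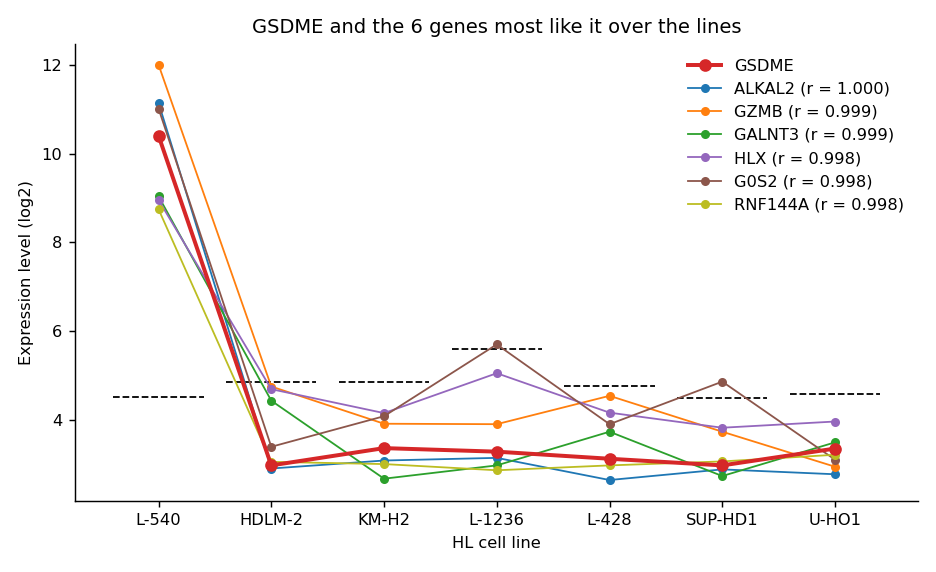
Levels (log2) of GSDME and of the 6 genes most like it in the 7 lines, one colour per gene, with L-540 at the left and dashed bars for the background of each array. All 7 genes lie between 8.75 and 12.01 in L-540 and at 5.70 or lower in the other lines.

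Marker genes of T cells and B cells were set beside GSDME. Of all genes, 57.9% were above background in L-540, 53.4% in HDLM-2 and 43.5% to 58.8% over the single arrays. The marker counts of the lines are therefore a description. Of 7 T cell markers, 5 were above background in L-540, 3 in HDLM-2, 2 in KM-H2, 0 in L-1236, 1 in L-428, 2 in SUP-HD1 and 1 in U-HO1, and their summed level ran between 27.33 in U-HO1 and 40.19 in L-540. CD247, the zeta chain of the T cell receptor complex, read 9.90 in L-540 and 9.81 in HDLM-2, and CD2 read 7.28 in L-540 and 8.95 in HDLM-2. CD3D went another way, with 8.89 in KM-H2 and 4.65 in L-540, and CD3G passed background in KM-H2 only, at 4.91. The defining chain CD3E lay at 4.71 in L-540, only 0.20 over background, and CD28 was below background in all lines. HDLM-2 shared CD247 and CD2 with L-540 at a GSDME level of 2.97. PRF1, the pore protein which carries granzymes into target cells, named here after its values were seen, read 11.34 in L-540 and 11.08 in HDLM-2. Of 6 measured B cell markers, 4 were above background in L-540, 3 in KM-H2, SUP-HD1 and U-HO1, 2 in HDLM-2 and L-428, and 1 in L-1236, and their summed level ran between 27.09 in L-428 and 32.42 in L-540. L-1236, with 1 marker above background, had a summed level of 32.27, so the sum also holds levels below background. BLK, a kinase of B cells, read 8.08 in L-540 and at most 5.99 elsewhere, in KM-H2. PAX5 went another way, with 8.18 in U-HO1, 7.81 in L-1236 and 7.80 in SUP-HD1, against 5.68 in L-540. CD22 read 6.81 in HDLM-2, 6.32 in KM-H2 and 6.22 in L-540. CD79A passed background in L-540, SUP-HD1 and U-HO1, at 5.34 or lower. The defining markers MS4A1 and CD79B were below background in all lines. The part of the T cell and B cell genes in the GSDME value was not tested.

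The next genes along chromosome 7 did not share the gap at GSDME. Of the 3 nearest measured genes on either side, OSBPL3, an oxysterol-binding protein, was highest in L-540, at 7.51, against 6.51 in HDLM-2 and 6.31 in KM-H2. Its neighbour CYCS, which encodes cytochrome c, lay between 10.49 and 11.61 in all 7 lines. PALS2 on the other side, a scaffold protein of cell polarity, read 6.56 in L-540 and 6.58 in SUP-HD1.

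The promoters of GSDME, PYCARD and CASP4 are shown because these members are each far above background in some lines and below it in others, and because they differ in their CG dinucleotides, the sites of DNA methylation, which was not measured here. The windows hold 250 bases before and 50 bases after a gene start in RefSeq, build GRCh38.p14, each written 5′ to 3′ on the strand of the gene with every CG in capitals. The table held 5 of the 9 members. GSDME lies at chr7:24757415-24757714 on the minus strand, PYCARD at chr16:31202711-31203010 on the minus strand, and CASP4 at chr11:104968525-104968824 on the minus strand.
GSDME: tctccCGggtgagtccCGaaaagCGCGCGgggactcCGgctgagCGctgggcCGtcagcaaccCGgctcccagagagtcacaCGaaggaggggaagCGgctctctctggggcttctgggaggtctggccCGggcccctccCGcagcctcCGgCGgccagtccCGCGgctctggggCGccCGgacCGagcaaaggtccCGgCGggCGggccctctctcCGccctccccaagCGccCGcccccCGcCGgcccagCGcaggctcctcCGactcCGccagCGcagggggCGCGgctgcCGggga
PYCARD: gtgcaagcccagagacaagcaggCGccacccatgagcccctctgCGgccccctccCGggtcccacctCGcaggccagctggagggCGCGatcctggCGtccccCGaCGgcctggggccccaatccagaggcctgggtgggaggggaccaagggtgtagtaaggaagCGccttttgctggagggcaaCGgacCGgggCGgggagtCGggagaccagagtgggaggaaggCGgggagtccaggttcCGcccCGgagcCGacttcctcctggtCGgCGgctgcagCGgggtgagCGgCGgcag
CASP4: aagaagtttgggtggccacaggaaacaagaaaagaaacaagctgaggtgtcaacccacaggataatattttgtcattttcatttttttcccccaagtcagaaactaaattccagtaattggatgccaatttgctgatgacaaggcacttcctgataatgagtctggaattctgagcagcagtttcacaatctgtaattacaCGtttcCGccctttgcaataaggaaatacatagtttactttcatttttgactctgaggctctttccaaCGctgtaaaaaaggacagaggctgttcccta
The window of GSDME holds 35 CG, that of PYCARD 23 and that of CASP4 3, against a median of 14 over 35116 promoters of the same length. At least as many were found in 14.1% of all promoters for GSDME, in 35.8% for PYCARD and in 81.8% for CASP4. For GSDME the annotation also has a start 38075 bases away, so that this window is not the only promoter of the gene. NINJ1, which was above background in all 7 lines, had 38 CG, a number reached by 9.91% of promoters, and NLRP3 had 5, reached by 70.4%. GSDME, PYCARD and NINJ1, with a CG count above the median, were above background in 1 line, in 4 lines and in 7 lines. NLRP3 and CASP4, with a count below it, were above background in 1 line and in 4 lines. A part of the CG count in these levels was not tested.

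PYCARD, the adaptor also known as ASC, had the widest range after GSDME. It read 8.64 in U-HO1, 8.63 in HDLM-2, 7.61 in L-1236 and 6.68 in SUP-HD1, against 3.91 in KM-H2, 3.73 in L-540 and 3.28 in L-428. SUP-HD1, the lowest line above background, passed it by 2.19, and the 3 low lines were all below background, so that their distance is not exact. Among the lines above it, HDLM-2 exceeded L-1236 by 1.02 and L-1236 exceeded SUP-HD1 by 0.93, while U-HO1 and HDLM-2 did not differ beyond the spread. U-HO1, the array with raised 18S and ACTB values, was among the highest, and the range was 4.12 without it, against 4.13 with it. PYCARD rests on 1 probe set, and the antisense gene PYCARD-AS1 beside it was above background in U-HO1 only, at 5.56.

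NLRP3, which assembles with PYCARD on signs of cell damage, was hardly detected. Its main probe set read 5.47 in HDLM-2 and 4.80 in KM-H2, against 3.20 in L-428, 3.20 in L-540, 3.15 in SUP-HD1, 2.83 in U-HO1 and 2.82 in L-1236. HDLM-2 exceeded background by 0.61 and KM-H2 missed it by 0.04, and the lines below background have no order. The other 2 probe sets of NLRP3 were below background in every line, at 3.82 or lower, so the HDLM-2 value rests on 1 of 3 probe sets. HDLM-2 was the only line in which NLRP3, PYCARD, CASP1 and GSDMD were above background together, which rests on that same probe set of NLRP3. Of all genes, 53.4% passed in HDLM-2, 57.4% in U-HO1 and 56.0% in L-428, so these counts are a description. U-HO1 had 3 of these 4, KM-H2, L-540, L-1236 and SUP-HD1 had 2, and L-428 had only GSDMD.

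CASP1, the protease of the inflammasome, was high in KM-H2 and HDLM-2. At its main probe set it read 7.42 in KM-H2, 7.39 in HDLM-2, 6.22 in U-HO1, 5.42 in L-1236, 5.34 in L-540, 3.73 in L-428 and 3.73 in SUP-HD1. KM-H2 and HDLM-2 did not differ beyond the spread, and HDLM-2 exceeded U-HO1 by 1.17. The value of L-1236 was below its high background, whereas the nearly equal value of L-540 passed. KM-H2, HDLM-2 and U-HO1 were together above background at 4 of the 5 probe sets of CASP1, while L-540 passed only at the 2 probe sets with names ending in _x_at, which can match several genes. L-428 passed at one of these, 209970_x_at, with 4.77 over a background of 4.75. At 206011_at CASP1 was above background in KM-H2 only, with 5.20, against 3.73 in HDLM-2.

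CASP4, the cytosolic sensor of lipopolysaccharide, had another order. It read 7.35 in L-540, 6.16 in KM-H2, 6.13 in HDLM-2 and 4.67 in U-HO1, against 3.82 in L-428, 3.63 in L-1236 and 3.15 in SUP-HD1. L-540 exceeded KM-H2 by 1.19 and HDLM-2 exceeded U-HO1 by 1.46, while U-HO1 passed background by only 0.08. The second probe set of CASP4 was below background in all lines, at 3.82 or lower, and the SD between the 2 probe sets was 0.90. With levels below background raised to it, the range of CASP4 was 2.86 and dropped to 1.67 without L-540. GSDME and CASP4 had r = 0.79 over the 7 lines, which rests on L-540 as the highest line for both, and CASP1 and CASP4 had r = 0.40.

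CASP4, CASP5, CASP1, CARD16 and CARD18 lie in this order in one cluster on chromosome 11. CARD16, a decoy made of a caspase recruitment domain, read 7.84 in HDLM-2, 5.19 in L-540 and 4.97 in U-HO1, against 4.15 in KM-H2, 3.66 in L-428, 2.81 in SUP-HD1 and 2.74 in L-1236. KM-H2 thus had CASP1 at the level of HDLM-2 and CARD16 below background, where HDLM-2 had 7.84. CASP5, a second lipopolysaccharide sensor, and CARD18, another CARD-only protein, were below background in all lines. CARD16 and CASP1 are close in sequence, and 1 probe set which the annotation gives to both read 7.61 in HDLM-2, 6.03 in U-HO1, 5.43 in KM-H2 and 4.91 in L-540, with at most 3.52 in the other lines. It lies outside the members.

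**Figure D3:**
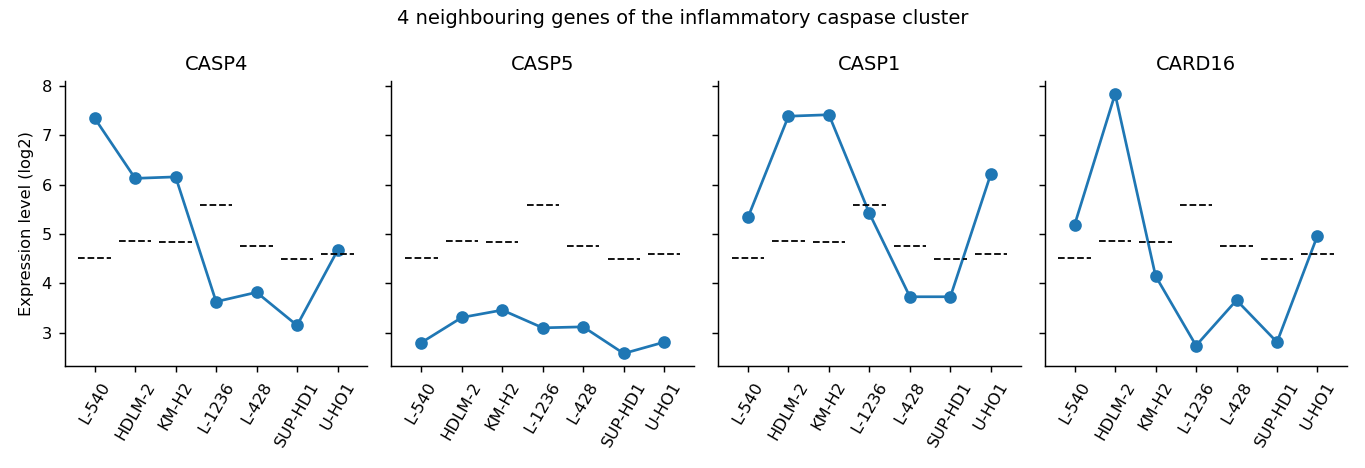
Levels (log2) of CASP4, CASP5, CASP1 and CARD16, in their order along chromosome 11, in the 7 lines with L-540 at the left, with dashed bars for the background of each array. L-540 was highest for CASP4 (7.35), KM-H2 and HDLM-2 for CASP1 (7.42 and 7.39), and HDLM-2 for CARD16 (7.84), while CASP5 stayed below background.

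Myeloid genes mark the cells best known for CASP1 and NLRP3 and were set beside both. Of all genes, 54.1% were above background in KM-H2 and 53.4% in HDLM-2, so the marker counts are a description. Of 8 markers, 3 were above background in KM-H2, 2 in HDLM-2, 1 in L-540, SUP-HD1 and U-HO1, and 0 in L-1236 and L-428, and their summed level ran between 27.87 in L-428 and 38.23 in KM-H2. ITGAM, an integrin of myeloid cells, read 8.22 in KM-H2, 7.13 in HDLM-2 and 5.23 in U-HO1, and was below background in the other 4 lines. CSF1R, the receptor of a macrophage growth factor, had another order, with 7.65 in L-540, 6.63 in KM-H2, 5.80 in SUP-HD1 and 5.24 in HDLM-2. CD14 passed in KM-H2 only, at 6.02. The defining markers LYZ, S100A8, S100A9, FCGR1A and MPO were below background in all lines.

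GSDMD, the pore-forming substrate of CASP1 and CASP4, was present throughout and varied least among the members above background in all lines. It read 7.86 in L-428, 7.34 in SUP-HD1, 7.09 in HDLM-2, 6.87 in L-540, 6.48 in U-HO1, 6.22 in L-1236 and 6.13 in KM-H2. No line differed from its neighbour in this order beyond the spread, while the highest and the lowest line differed by 1.73. The top value of GSDMD was in L-428, within the spread of SUP-HD1. Of its neighbours with their top value in L-428, LOC100310756 read 8.38 there and 7.31 in HDLM-2 as the next line, a step beyond the spread. ZC3H3, a zinc finger protein, read 7.22 in L-428 and 6.77 in SUP-HD1, and MROH6 read 7.04 in L-428 and 6.85 in L-1236. The steps of ZC3H3 and MROH6 were within the spread. L-428 had GSDMD at 7.86 and was below background at the main probe sets of CASP1, CASP4, NLRP3 and PYCARD.

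GSDMB, a gasdermin which granzyme A can cut, was also above background in all lines. It read 8.48 in KM-H2, 8.23 in U-HO1, 8.04 in L-540 and 7.64 in HDLM-2, against 6.55 in L-1236, 6.25 in L-428 and 5.76 in SUP-HD1. The only step beyond the spread was the 1.09 between HDLM-2 and L-1236. The other 2 probe sets of GSDMB were lower and passed background in KM-H2, L-540 and U-HO1 alone, with 5.03, 5.96 and 5.11 at 215659_at and 5.03, 4.65 and 4.86 at 240701_at. GSDMB and CASP1 had r = 0.76 over the lines, and GSDMB and GSDMD r = -0.60. Such values over 7 lines are a description. The largest r of any pair of members was 0.85, for GSDMC and NLRP3, which passed background in 1 line each, so raised backgrounds enter r. Its neighbour ORMDL3, a regulator of sphingolipid synthesis, read 9.99 in HDLM-2 and 9.71 in L-540, and 6.95 to 8.70 in the other 5 lines. ZPBP2 on the other side, a zona pellucida binding protein, read 7.46 in KM-H2 and was otherwise above background only in L-428, at 5.41. The top value of GSDMB was also in KM-H2, but within the spread of that in U-HO1.

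GSDMC, which CASP8 can cut, stayed at background. It read 4.67 in U-HO1, which is 0.08 above background, and 3.73 to 5.43 in the other lines, where the highest value belonged to L-1236 and was below background there. NINJ1, in contrast, was well above background in all lines, with 8.89 in KM-H2, 8.47 in L-540, 8.24 in HDLM-2, 7.62 in L-428, 7.26 in U-HO1, 7.23 in SUP-HD1 and 6.77 in L-1236. The only step of NINJ1 beyond the spread of 0.54, and just beyond it, was the 0.62 between HDLM-2 and L-428. CASP4 and NINJ1 had r = 0.69, also a description over 7 lines with levels below background raised to it.

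**Figure D4:**
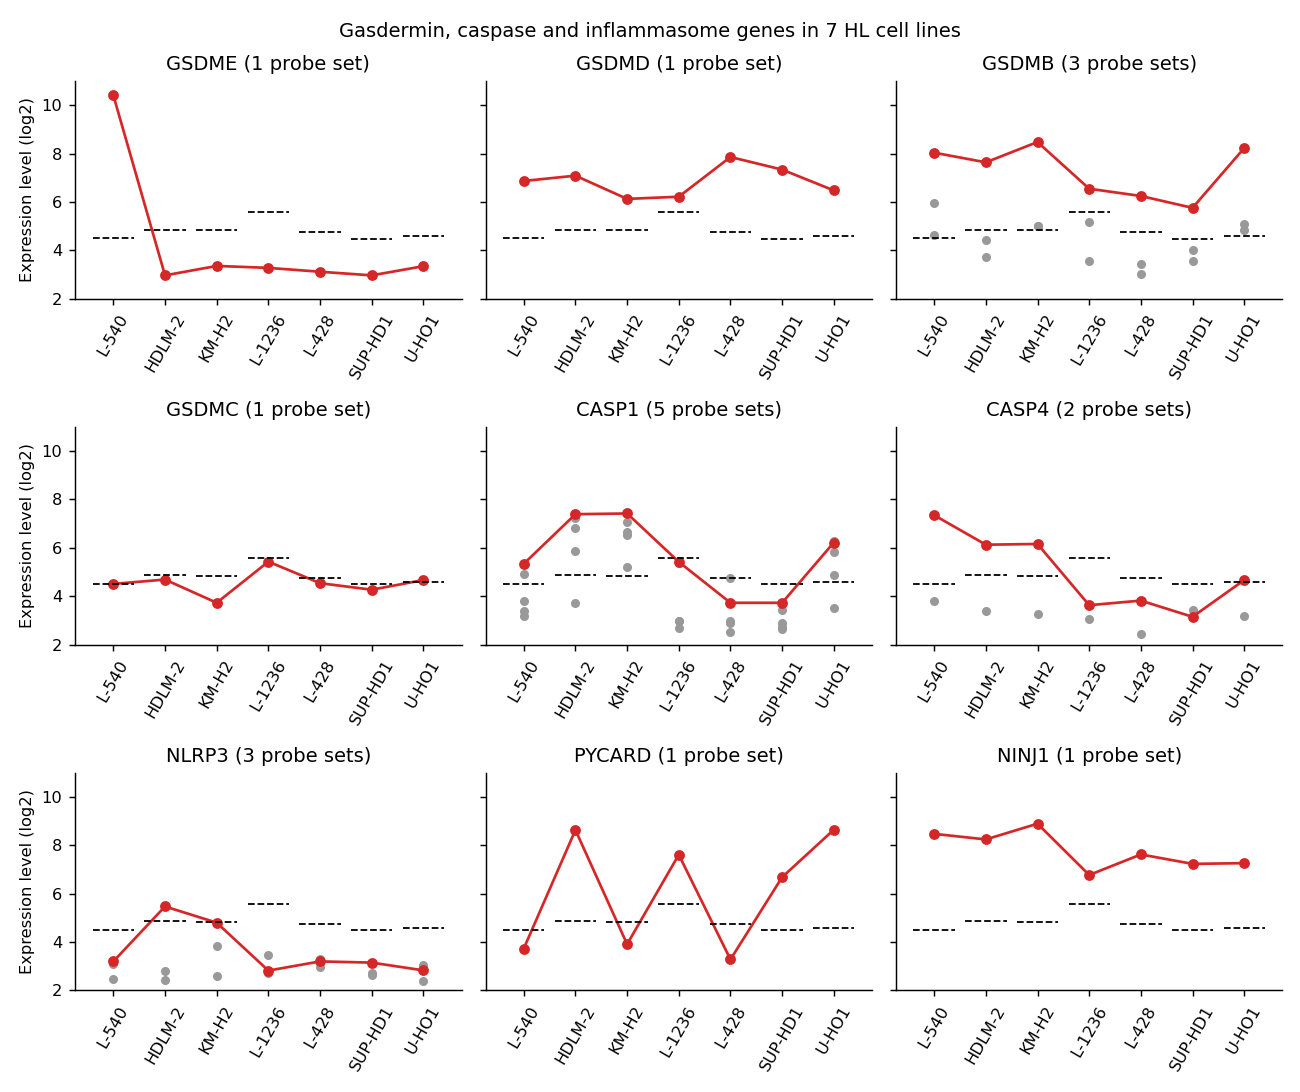
Levels (log2) of the 9 members in the 7 lines, one panel per gene with L-540 at the left, with dashed bars for the background of each array. GSDME passes background in L-540 only, at 10.41, and PYCARD falls into 4 lines at 6.68 or higher and 3 lines at 3.91 or lower, while GSDMD, GSDMB and NINJ1 pass in every line.

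For ranges, levels below background were raised to the background of their array. The range was 5.92 for GSDME, 4.13 for PYCARD, 2.93 for CASP1, 2.86 for CASP4, 2.72 for GSDMB and 2.12 for NINJ1, and these 6 members reached a range of 2. Of all genes, 14495 passed background in 1 line or more, and 36.9% of these did. The median range was 2.72 over the members and 1.67 over those genes. NINJ1 was the member just inside the limit of 2, and GSDMD, at 1.73, the one just outside. NINJ1 had 1.66 without L-1236 and 1.70 without KM-H2. The ranges of GSDMC and NLRP3, at 1.10 each, equal the difference between the background of L-1236 and that of SUP-HD1 and hold nothing of the genes.

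Around the members, 58 further genes of these pathways were listed, and 49 of them were measured. Of these, 13 were above background in all 7 lines, 12 in no line and 24 in 1 to 6 lines. Among all 19775 genes, 34.6% were above background in all 7 lines, and 14495 genes in 1 line or more. Of the 37 listed genes above background somewhere, 20 reached a range of 2, beside 36.9% of all such genes. By margin CARD16 in HDLM-2, at 2.25, and GZMB in L-540, at 6.42, stood alone upwards, beside 2.59% of all such genes. IFI16 in U-HO1 stood alone downwards, by 2.77, beside 1.15%. The lists were chosen with earlier results of these data known, so these counts are a description.

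Of 11 other inflammasome sensors, 0 were above background in all lines, 2 in none and 9 in some, and 5 of these 9 had a range of 2. Over all genes, 34.6% were above background in all lines, and 36.9% of those above it somewhere had a range of 2. IFI16, a nuclear sensor of DNA, read 10.31 in L-540, 9.80 in SUP-HD1, 9.46 in HDLM-2, 9.30 in KM-H2, 8.86 in L-428 and 7.36 in L-1236, but 2.58 in U-HO1. AIM2, the cytosolic sensor of DNA which also uses PYCARD, was named after its values were seen and read 10.02 in SUP-HD1, 9.65 in HDLM-2, 8.06 in L-540, 7.47 in L-428 and 5.47 in KM-H2, and was below background in L-1236 and U-HO1. AIM2, PYCARD, CASP1 and GSDMD were thus above background together in HDLM-2, the same line as for NLRP3, while SUP-HD1 was below background for CASP1. In HDLM-2, 53.4% of all genes were above background. NLRP7, also named after its values were seen, was above background in KM-H2 only, at 7.21. Both DNA sensors were below background in U-HO1, whose RNA quality measures stand apart, and their part in these values was not tested.

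A list of 9 further caspases held the executing and initiating caspases together with CASP5 and CASP14, and 7 of the 9 were measured. Of these, 4 were above background in all lines, beside 34.6% of all genes. The 2 above it in no line were CASP5 and CASP14, the latter also named after its values were seen. A range of 2 was found for 1 of the 5 above background somewhere, beside the 36.9% over all genes. CASP8, which starts death receptor apoptosis and can cut GSDMC, ran between 6.35 in HDLM-2 and 8.04 in U-HO1, and CASP9, the caspase of the apoptosome, between 5.59 in HDLM-2 and 7.45 in U-HO1. CASP6, an executioner caspase, read 6.55 in L-1236 and 8.01 to 9.03 in the other lines.

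Of 5 genes of cytotoxic granules, 3 were above background in some lines, and 2 of these had a range of 2, beside the 36.9% over all genes. GZMB was above background in L-540 only. Granzyme A itself, GZMA, was below background in all lines. Of 5 measured inhibitors among 7 listed, 1 was above background in all lines, beside 34.6% of all genes, and 2 in none. SERPINB9, the inhibitor of granzyme B, named after its values were seen, read 9.74 in SUP-HD1 and 9.0 in L-428, and 4.44 in L-540, where GZMB was high. SERPINB1, a protease inhibitor of the same list, also named after its values were seen, went another way. It was the inhibitor above background in all lines, with 11.30 in L-540 and 7.14 to 10.22 in the other lines.

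The cytokine genes of the inflammasome lay near background or below it. Of 4 inflammasome cytokines, IL18 and IL33 were below background in all lines, and 0 had a range of 2, beside the 36.9% over all genes. IL1A was above background in 6 lines, at 4.84 in L-540, 5.15 in HDLM-2, 5.43 in KM-H2, 6.08 in L-1236, 5.25 in L-428 and 5.60 in SUP-HD1, with 3.63 in U-HO1. IL1B, named after its values were seen, was above background in 4 lines and nowhere over 5.33.

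Of 10 genes of NLRP3 priming and activation, 5 were above background in all lines, 2 in none and 6 had a range of 2. Over all genes, 34.6% were above background in all lines, and 36.9% of those above it somewhere had a range of 2. TXNIP, a thioredoxin-binding protein which can bind NLRP3, read 11.29 in HDLM-2, 10.58 in U-HO1, 9.95 in SUP-HD1, 9.87 in L-1236 and 8.36 in L-428, against 4.22 in L-540 and 3.73 in KM-H2. The lines below background for TXNIP were also below background for PYCARD, but L-428 was above it for TXNIP and not for PYCARD. GBP1 and GBP2, interferon-induced GTPases which coat bacteria and help to activate CASP4, read 9.16 and 9.68 in HDLM-2, and 5.03 and 9.69 in L-540. NEK7, the kinase-family partner of NLRP3, was above background in all 7 lines.

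Of 5 measured regulators of gasdermins and membrane repair among 9 listed, 3 were above background in all lines, beside 34.6% of all genes. A range of 2 was reached by 2 of them, beside the 36.9% over all genes. IRF2, a transcription factor needed for GSDMD expression in other cells, read 8.31 in HDLM-2 and 8.03 in L-540, and 5.09 in L-1236. The value in L-1236 was below the high background of that array, at 5.59, which GSDMD passed by 0.63. The part of IRF2 in the GSDMD values was not tested. CHMP4B, a part of the machinery which removes damaged membrane, ran between 8.19 in HDLM-2 and 9.84 in U-HO1. SDHAF4, an assembly factor of succinate dehydrogenase in this list, ran between 3.10 in L-1236 and 7.92 in HDLM-2. Both genes related to the members were above background in some lines, NINJ2, a paralogue of NINJ1, with at most 7.52, in U-HO1, and PJVK, the pejvakin of the gasdermin family, with at most 5.63, in L-428.

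**Figure D5:**
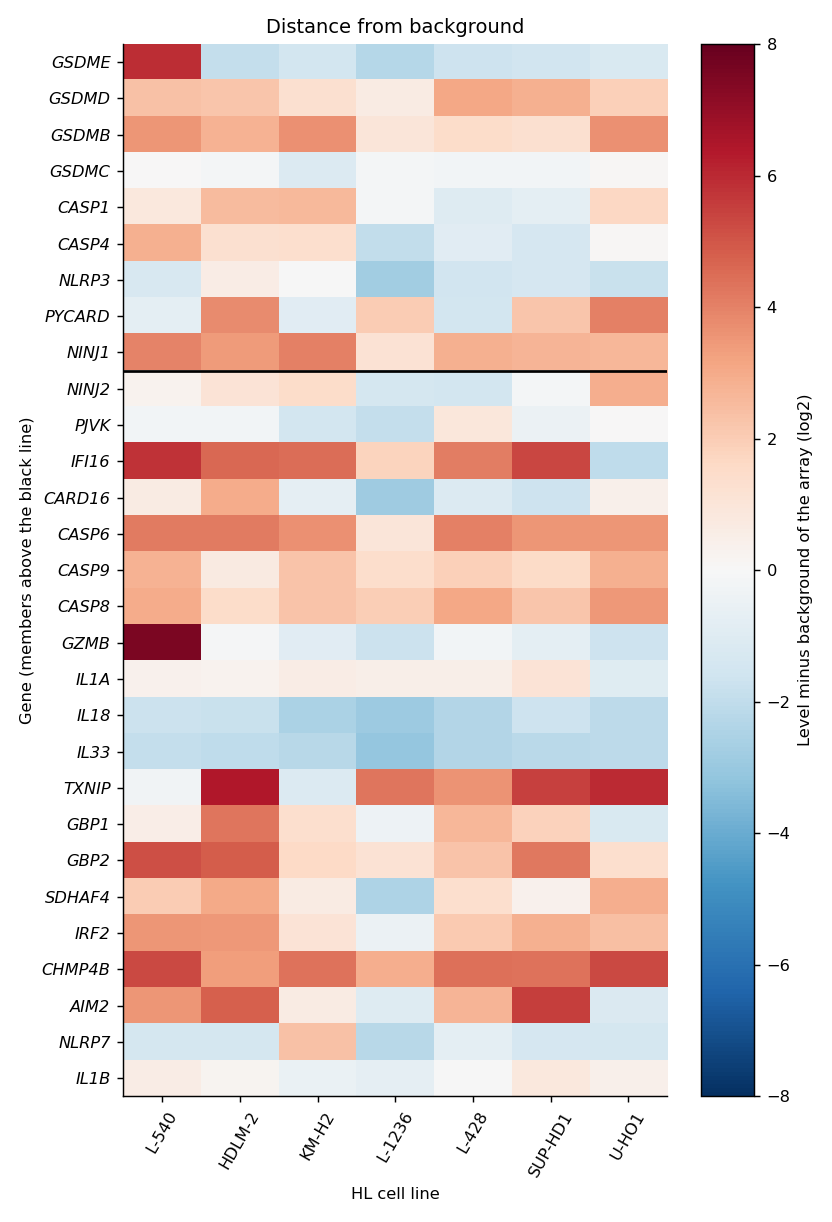
Level minus the background of the array (log2, colour scale) for the 9 members, above the black line, and for further pathway genes, below it, in the 7 lines with L-540 at the left. Red is above and blue below background, and the last 3 rows, AIM2, NLRP7 and IL1B, were chosen after their values were seen. GSDME and GZMB share their deep red in L-540, 5.90 and 7.50 above background, and IFI16 is blue in U-HO1 only.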

How the data were processed

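RNA of 7 HL cell lines was hybridised to 1 array per line. The submitters' processing notes name RMA, affy and limma without versions, and the methods name RMA background correction, quantile normalization, a ratio to the mean and a log2 transformation by the authors. The deposited log2 values are levels and not centred ratios, since they ran between 1.99 and 14.17, with 0 missing values and 0 unused columns. A genome build for the array annotation is not given in the sources used here.

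Probe sets were named through the annotation table of the array (41097 with 1 gene, 1801 with several and 11777 with none), and 41043 symbols were updated through the RefSeq gene table. Probe sets with several genes or none were left out. The number of arrays limits the precision, and with 1 array per line no test was run. The pooled SD within genes that have several probe sets (5050 genes, 13397 probe sets) served as technical spread, and it may also hold differences between transcripts. Only probe sets whose mean over the lines exceeded the mean background entered it, so weak probe sets are not covered. Levels below background were raised to it for ranges, margins and r.

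The members and the gene lists were chosen with earlier results of these data known. Genes named were the members, the genes of a list that stood alone in a line or else the 3 of widest range, the 6 most like GSDME, and neighbours that shared the highest line of a member. CASP5, CARD18, CYCS, PALS2, ORMDL3, GZMA, NEK7 and others marked in the text were chosen after their values were seen. Some listed genes were not analysed here. Alternatives took another probe set rule, other backgrounds, limits and scalings, values as deposited, and left out lines. Python 3.11.15, pandas 2.3.3, numpy 2.4.6 and matplotlib 3.10.9 were used. The margin rule was tried on simulated levels with less noise than the technical spread, where the raised genes started above background. That trial does not cover genes below background in the other lines, such as GSDME.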

Additional observations from a re-analysis of the deposited data

Results flagged for a closer look

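A line was marked where its gap to the nearest other line was too large a part of the range over the 7 lines. This was examined for 38 measures, of which 8 were marked. Chance marks about 1 in 20, but GSDME and the pathway genes were chosen for standing alone in a line or for a wide range, so that the number marked cannot be set against this rate. The lines are different cell lines and not replicates. Among 18 member probe sets 2 were marked. GSDME was high in L-540, at 10.41, against 3.36 in KM-H2 as the next line, which is the value on which it was selected. CASP1 at 206011_at was high in KM-H2, at 5.20, against 3.73 in HDLM-2.

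Among 17 pathway genes 3 were marked. GZMB was high in L-540, at 12.01, against 4.75 in HDLM-2. IFI16 was low in U-HO1, at 2.58 and below background, against 7.36 in L-1236. CASP6 was low in L-1236, at 6.55, against 8.01 in SUP-HD1. All 3 measures of the arrays were marked, with a background of 5.59 in L-1236 against 4.86 in HDLM-2, an 18S level of 11.12 in U-HO1 against 7.06 in L-540, and an ACTB difference between 3' and 5' of 2.11 in U-HO1 against 0.54 in HDLM-2 and KM-H2.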

How the results depend on the processing

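Of 64 values of the counts over the members and of the GSDME margin under other settings, 55 moved by less than the technical spread or stayed within 1.5 times the main count and 9 moved more. Without probe sets ending in _x_at or _s_at, GSDME, GSDMC and PYCARD had no value, and 19 levels were above background in place of 36, 1 member reached a range of 2 in place of 6, and 0 stood alone in place of 1. The GSDME margin of 4.82 was 7.05 with values as deposited and 5.55 without L-1236 and U-HO1 together. A range limit of 3 left 2 members, and a margin limit of 1 gave 2 that stood alone, with CASP4 in L-540 added. With each line left out in turn, levels above background ran between 29 and 33, members with a range of 2 between 4 and 6, members that stood alone between 0 and 1 (0 without L-540), and the margin between 4.82 and 5.55. No GSDME margin can be had without L-540. Of 141 ranges of members under other settings, 124 moved by less than the spread and 17 more. With the mean of all probe sets, the range was 1.73 for GSDMB, 2.10 for CASP1 and 1.10 for CASP4, so that 4 members reached 2. No paired analysis was possible because the lines share no replicates, with 1 array each, and no result comes from a test. Levels below background have no order, which limits L-1236 most.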
